A study of Mus musculus with 6 samples.

Results

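The transcripts of 40 chromatin remodelling genes were followed in the sciatic nerve of postnatal day 3 mice. They are 28 subunits of the BAF complex, also called SWI/SNF, the ISWI-type ATPases Smarca1 and Smarca5, the related Smarcad1, and the 9 members of the CHD family. The members were chosen by name from the 54838 rows of a table of counts per gene, and all 40 were found there. The series holds 6 libraries. Of these, 3 came from Actl6a conditional knockout (cKO) mice, labelled CnpCre Actl6afl/fl, and 3 from wild-type (WT) mice, with the strain given as C57 Bl for both groups. The genotype label names a Cnp-driven Cre recombinase, which acts where Cnp is active, in myelinating glia such as Schwann cells, and a floxed Actl6a gene. The labels do not say whether WT mice carried the Cre or the floxed allele, whether animals were pooled, or which part of Actl6a the Cre removes. Xist, which is transcribed in females, and the Y-linked Kdm5d were both counted in each of the 6 libraries.

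BAF complexes use the energy of ATP to slide or evict nucleosomes. Each holds 1 ATPase, Smarca4 (BRG1) or Smarca2 (BRM), Smarcc and Smarcd core subunits, and the actin-related Actl6a (BAF53a) or its neuronal paralogue Actl6b (BAF53b). Further subunits set the class of complex: Arid1a or Arid1b for canonical BAF, Arid2 and Pbrm1 for PBAF, and Bicra or Bicral with Brd9 for non-canonical BAF, which lacks the core subunits Smarcb1 and Smarce1 of the other classes. ISWI ATPases space nucleosomes, and CHD proteins are ATPases with chromodomains, of which Chd3, Chd4 and Chd5 drive the NuRD complex. In Schwann cells Smarca4 and Chd4 are known to take part in the programme that starts myelination.

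Levels are CPM, depth-scaled counts with TMM-normalised library sizes, computed from the deposited counts. Total counts ran from 31404107 to 32674317 in cKO and from 33084003 to 36760296 in WT libraries. Of 18775 genes tested with edgeR, 1605 (8.55%) were higher and 1929 (10.3%) lower in cKO nerves at an adjusted p below 0.05, and a gene past that threshold is called here. Schwann cell markers were present, with 0 of 8 at 0, but 6 of 8 fell, and their summed level was 2633 to 4711 CPM in cKO and 21496 to 25041 CPM in WT libraries. In bulk nerve, fewer cells of a type and less RNA per cell cannot be told apart. Macrophage markers, of which 5 of 6 rose, summed to 656 to 825 CPM in cKO and 386 to 439 CPM in WT libraries, and erythroid markers, of which 3 of 6 rose, to 5622 to 18058 CPM in cKO and 2244 to 3291 CPM in WT libraries. The part of these markers in the results on remodellers was not tested. Library cKO replicate 2 stood apart from the other 5: the summed level of 10 skeletal muscle markers was 67147 CPM there, 4554 and 5307 CPM in cKO replicates 1 and 3, and 3607 to 5229 CPM in WT libraries. Without it, 3425 genes (17.8%) were higher and 3398 (17.6%) lower. Results on remodellers are given with this library and, where that changes the call, without it.

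Of the 40 remodeller genes, 39 had enough counts to be tested. In cKO nerves 3 of them rose, or 7.69%, against 8.55% of all genes tested. In cKO nerves 8 fell, or 20.5%, against 10.3% of all genes tested. The genes that rose were Smarca2, Smarcd2 and Smarca1. Those that fell were Smarcd1, Bicra, Ss18l1, Chd2, Chd4, Chd5, Chd6 and Chd9. Together the 11 were 28.2% of the 39, against 18.8% of all genes. The changes were small: 33 of the 39 had a log2 fold change within 0.5 of 0, with a median of -0.17, beside 0.04 over all genes tested. Of the 39, 28 were below 0, as were 45.7% of all genes tested. Every cKO library lay above every WT library for 4 and below for 17, against 21% and 21.7% of all genes tested. Split by family, 2 of 27 BAF subunits rose and 3 fell, and 5 of 9 CHD genes fell with 0 higher. In the group of the ISWI-type ATPases and Smarcad1, 1 of 3 rose. With cKO replicate 2 left out, 19 of 40 tested were called, 4 higher and 15 lower, with a median of -0.21, beside 35.4% of all genes called, 17.8% higher and 17.6% lower. The 4 include Actl6b, which passed the low-count filter through cKO libraries alone.

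**Figure D1:**
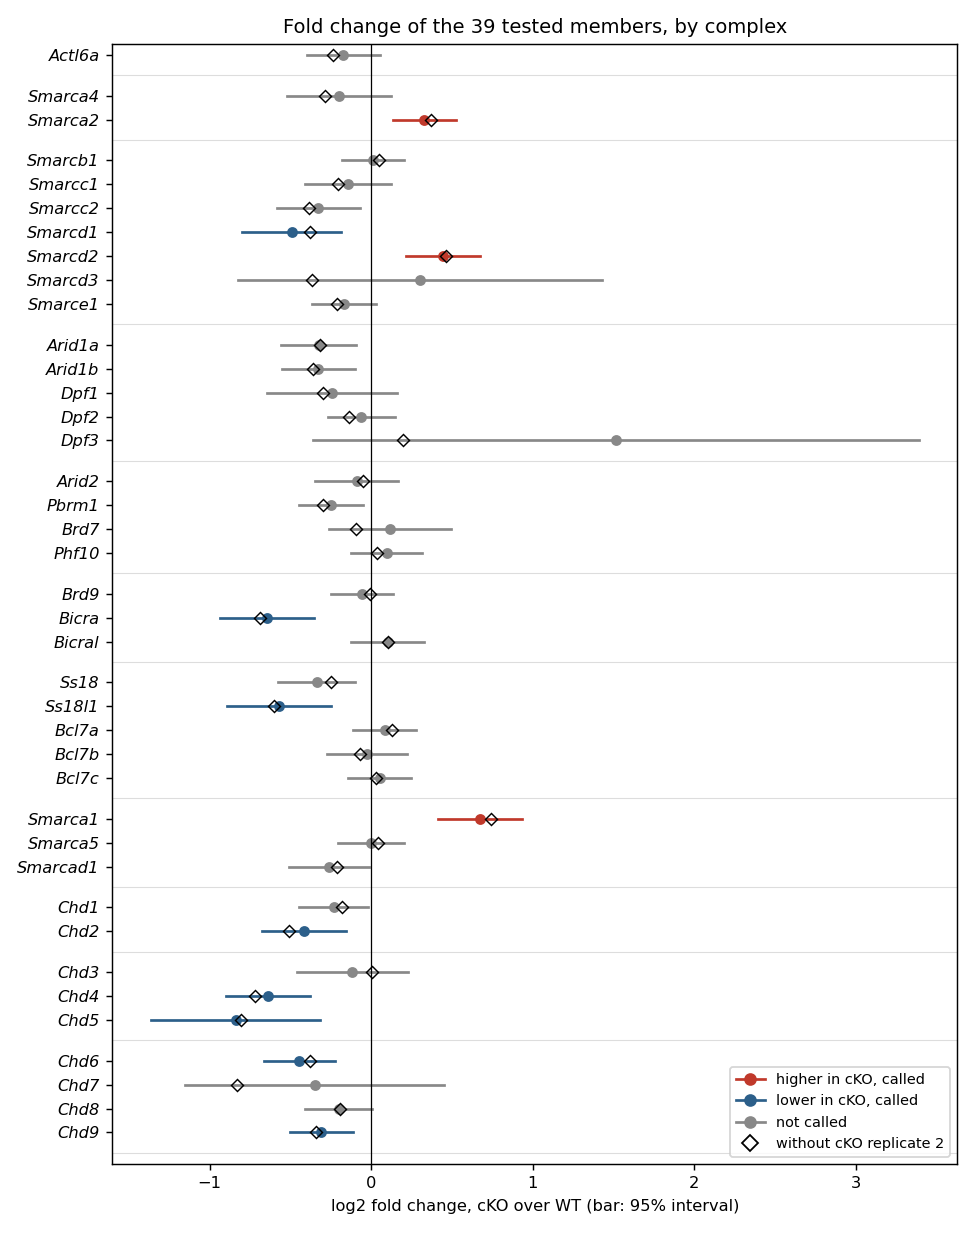
Log2 fold change, cKO over WT, of the 39 tested remodeller genes in the order of their complexes, with 95% intervals; filled points use all 6 libraries and open diamonds leave out cKO replicate 2. Called genes lie on both sides of 0 among BAF subunits and below 0 among CHD genes, and the widest intervals belong to Dpf3, Smarcd3 and Chd7.

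Actl6a, the targeted gene (ENSMUSG00000027671, GRCm38 chromosome 3, 32706298 to 32726973), read 42.4, 47.6 and 41.5 CPM in the cKO libraries, against 48.6, 53.3 and 46.2 CPM in the WT libraries. The groups overlapped, since cKO replicate 2 exceeded WT replicate 3. Means were 43.8 ± 3.29 CPM in cKO and 49.4 ± 3.61 CPM in WT nerves (SD, n = 3 each), and the difference was not called (log2 fold change -0.17, 95% interval -0.40 to 0.05, edgeR adjusted p = 0.243). It passed the threshold when cKO replicate 2 was left out (log2 fold change -0.24, edgeR adjusted p = 0.0487). The count covers all exons of the gene and all cells of the nerve, so it does not test whether the floxed part was removed. The neuronal paralogue Actl6b held 11, 5 and 12 counts in cKO libraries, against 4, 4 and 4 in WT libraries. Every cKO library had more, but the gene was too low to be tested with all 6 libraries. It was tested and called when cKO replicate 2 was left out, with 1.53 (edgeR adjusted p = 0.0319) on the log2 scale. It passed the filter there only through cKO replicates 1 and 3, where it is high, so this p-value lends no support. The fits without WT replicate 1, 2 or 3 did not call it. Of 10 neuron markers, 7 were higher without cKO replicate 2, beside 17.8% of all genes tested. With all libraries 3 were higher, beside 8.55%, and 0 were lower in both. Their summed level was 68.0 to 130.5 CPM in cKO and 54.7 to 62.6 CPM in WT libraries, with 0 of 10 at 0. The part of these markers in the counts of Actl6b was not tested.

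Of the ATPases of the BAF complex, Smarca2 rose and Smarca4 was not called. Smarca2 (ENSMUSG00000024921, GRCm38 chromosome 19, 26605050 to 26778322) read 102, 98.2 and 112 CPM in the cKO libraries, against 82.5, 82.8 and 83.2 CPM in the WT libraries. All cKO libraries lay above all WT libraries, which were close to each other, and Smarca2 rose 1.26-fold (log2 fold change 0.33, 95% interval 0.14 to 0.52, edgeR adjusted p = 0.0344). The call was lost when WT replicate 1, 2 or 3 or cKO replicate 1 or 3 was left out (log2 fold change 0.27 to 0.35, edgeR adjusted p 0.0590 to 0.149). Smarca4, the ATPase known to be needed for Schwann cell myelination, read 69.3, 92.0 and 85.6 CPM in the cKO libraries, against 107, 87.3 and 88.5 CPM in the WT libraries. These groups overlapped, and no difference was called (log2 fold change -0.20, 95% interval -0.52 to 0.12, edgeR adjusted p = 0.335). Per kilobase of exon, Smarca4 was the more abundant of the pair, at 12.7 ± 1.81 CPM per kilobase in cKO and 14.6 ± 1.74 in WT nerves. Smarca2 was at 7.29 ± 0.521 CPM per kilobase in cKO and 5.80 ± 0.0246 in WT nerves. This ranking, and the share and sum below, rest on deposited exonic lengths of 6475 bases for Smarca4 and 14269 for Smarca2. These lengths cover all exons annotated for a gene. By CPM, Smarca2 was at 104 in cKO and 82.8 in WT nerves, against 82.3 and 94.4 for Smarca4. The share of Smarca2 in the summed ATPase transcript was 36.6% ± 3.69 in cKO and 28.6% ± 2.40 in WT nerves (SD, n = 3 each). The sum itself was 20.0 ± 1.89 CPM per kilobase in cKO and 20.4 ± 1.72 in WT nerves, a difference smaller than the SD of either group.

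**Figure D2:**
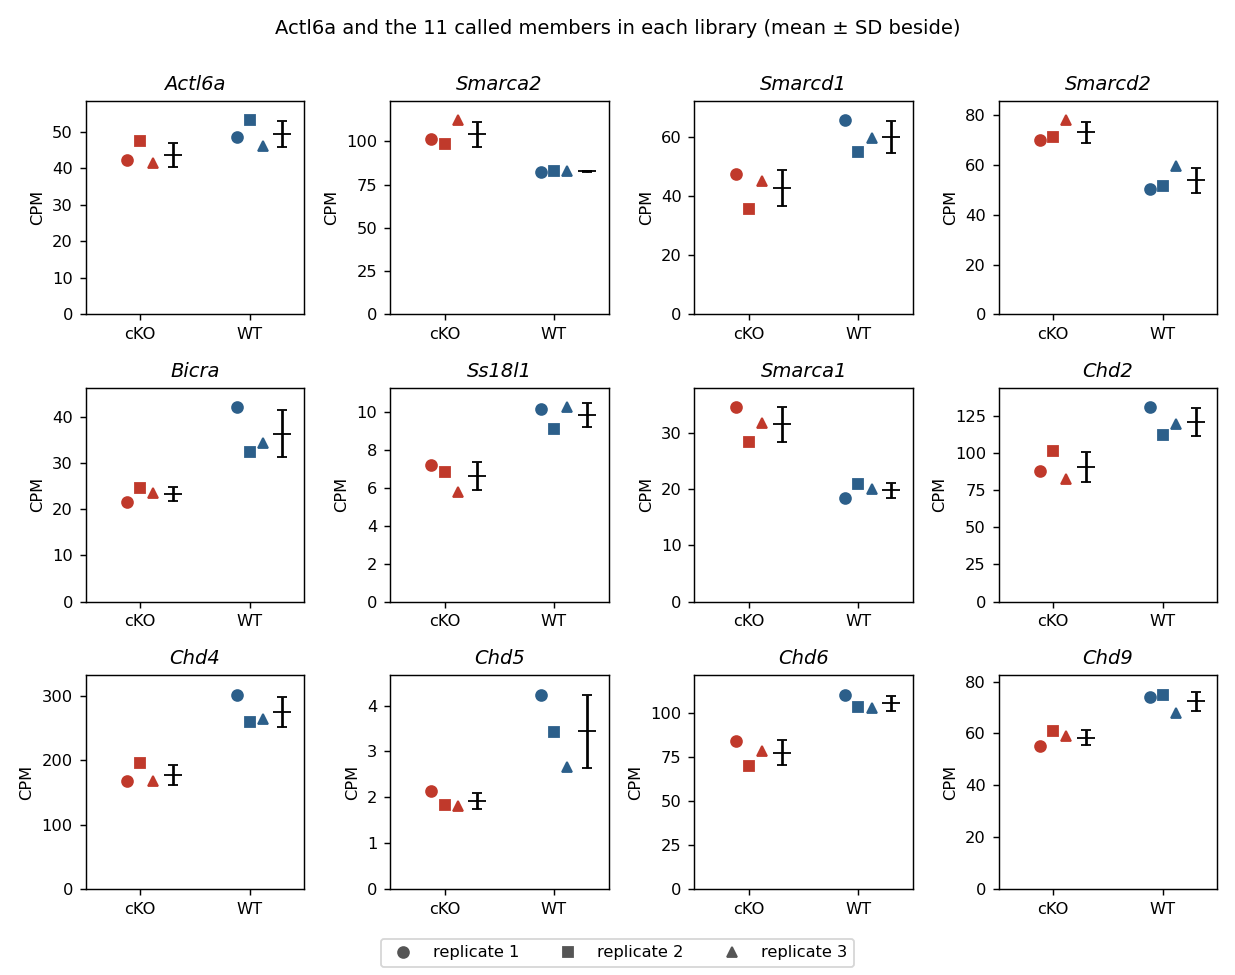
CPM of Actl6a and of the 11 called remodeller genes in each library, cKO in red and WT in blue, with the mean and SD (n = 3) beside the points and axes that start at 0. Actl6a overlaps between the groups, whereas the libraries of the 11 called genes do not.

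Among core subunits, the Smarcd paralogues, which encode BAF60 proteins that link the complex to transcription factors, were called in opposite directions, Smarcd2 higher and Smarcd1 lower. Smarcd2 read 70.2, 71.2 and 78.2 CPM in the cKO libraries, against 50.3, 51.7 and 59.6 CPM in the WT libraries. It rose 1.36-fold, with no overlap of the groups (log2 fold change 0.44, 95% interval 0.21 to 0.67, edgeR adjusted p = 0.0226), and the call was lost when WT replicate 1 or 2 or cKO replicate 3 was left out (log2 fold change 0.39 to 0.40, edgeR adjusted p 0.0749 to 0.114). Smarcd1 read 47.6, 35.8 and 45.1 CPM in the cKO libraries, against 65.9, 55.1 and 59.8 CPM in the WT libraries. It was lower in every cKO library and fell 1.41-fold (log2 fold change -0.49, 95% interval -0.80 to -0.18, edgeR adjusted p = 0.0415), a call lost when WT replicate 1, 2 or 3 or cKO replicate 3 was left out (log2 fold change -0.57 to -0.43, edgeR adjusted p 0.0874 to 0.149). Of its exonic bases 12.7% overlap another gene. Smarcd3, a subunit known from heart and skeletal muscle, read 13.5, 45.1 and 19.2 CPM in the cKO libraries, against 23.5, 19.0 and 20.5 CPM in the WT libraries. Only cKO replicate 2 exceeded the WT range, and the difference was not called (log2 fold change 0.30, 95% interval -0.83 to 1.43, edgeR adjusted p = 0.667).

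The other core genes were not called. Smarcb1 (SNF5), the subunit lost in rhabdoid tumours, had a log2 fold change of 0.01 with a 95% interval of -0.18 to 0.20. Smarce1 (BAF57) had -0.17 (-0.36 to 0.03), and 15.0% of its 50-base transcript words occur in other genes. Of the scaffold pair, Smarcc1 (BAF155) had -0.14 (-0.41 to 0.12). Smarcc2 (BAF170), the more abundant of the pair at 23.3 ± 2.07 CPM per kilobase in cKO and 29.2 ± 2.66 in WT nerves, read 117, 139 and 132 CPM in the cKO libraries, against 177, 162 and 148 CPM in the WT libraries. Its cKO libraries all lay below the WT libraries, and it had -0.33 (-0.58 to -0.07, edgeR adjusted p = 0.0797). It was called when cKO replicate 2 was left out (log2 fold change -0.39, edgeR adjusted p = 0.00542).

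The pair that defines canonical BAF did not pass the threshold with all libraries. Arid1a, a DNA-binding subunit of that complex, read 107, 102 and 101 CPM in the cKO libraries, against 145, 119 and 124 CPM in the WT libraries. Its paralogue Arid1b read 45.7, 46.4 and 41.0 CPM in the cKO libraries, against 59.9, 51.0 and 56.1 CPM in the WT libraries. Both were below WT in every cKO library and had nearly equal log2 fold changes, -0.33 (-0.56 to -0.09, edgeR adjusted p = 0.0617) and -0.33 (-0.55 to -0.10, edgeR adjusted p = 0.0568). Both were called when cKO replicate 2 was left out, Arid1a at -0.32 (edgeR adjusted p = 0.0154) and Arid1b at -0.36 (edgeR adjusted p = 0.00832). The share of Arid1a in the pair was 71.9% ± 1.12 in cKO and 71.8% ± 0.945 in WT nerves.

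The DPF genes encode histone-reading BAF45 subunits. Dpf2, the ubiquitous form, dominated at 9.78 ± 0.891 CPM per kilobase in cKO and 10.2 ± 0.0828 in WT nerves and was not called (log2 fold change -0.06, 95% interval -0.27 to 0.15, edgeR adjusted p = 0.654). The neuronal Dpf1 had a log2 fold change of -0.24 (-0.64 to 0.16) and was low, at 3.60 ± 0.436 CPM in cKO and 4.26 ± 0.433 CPM in WT nerves (SD, n = 3 each). Dpf3, known from heart and muscle, read 2.04, 9.65 and 1.46 CPM in the cKO libraries, against 1.83, 1.41 and 1.31 CPM in the WT libraries. Its value in cKO replicate 2 was far above the other 5 libraries, and its interval was the widest of all members (log2 fold change 1.52, 95% interval -0.36 to 3.39, edgeR adjusted p = 0.216).

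Of 4 PBAF genes 0 were called with all libraries, beside 18.8% of all genes tested. Pbrm1 (BAF180), a subunit with several bromodomains, read 123, 135 and 122 CPM in the cKO libraries, against 154, 145 and 152 CPM in the WT libraries. It was below WT in each cKO library (log2 fold change -0.25, 95% interval -0.45 to -0.05, edgeR adjusted p = 0.0796) and was called when cKO replicate 2 was left out (log2 fold change -0.30, edgeR adjusted p = 0.00650). The DNA-binding Arid2 had -0.09 (-0.35 to 0.17), the bromodomain gene Brd7 0.12 (-0.26 to 0.49), and the PHD finger gene Phf10 0.10 (-0.12 to 0.32). Brd7 read 126 CPM in cKO replicate 2 and 82.7 to 93.7 CPM in the other 5 libraries, and without that library its value was -0.09 (edgeR adjusted p = 0.383).

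In non-canonical BAF, Bicra (GLTSCR1, ENSMUSG00000070808, GRCm38 chromosome 7, 15970672 to 16047921), a scaffold of that complex, had the largest fall among BAF subunits. It read 21.5, 24.6 and 23.5 CPM in the cKO libraries, against 42.1, 32.5 and 34.3 CPM in the WT libraries. Every cKO library was below every WT library, and Bicra fell 1.56-fold (log2 fold change -0.64, 95% interval -0.94 to -0.35, edgeR adjusted p = 0.0145). The call was lost when WT replicate 1 or 3 was left out (log2 fold change -0.69 to -0.53, edgeR adjusted p 0.0523 to 0.0551). Its paralogue Bicral read 20.3, 20.4 and 20.9 CPM in the cKO libraries, against 20.2, 17.6 and 19.6 CPM in the WT libraries. Its lowest cKO library was just above its highest WT library, and it was not called (log2 fold change 0.10, 95% interval -0.12 to 0.33, edgeR adjusted p = 0.473). The bromodomain partner Brd9 had -0.06 (-0.25 to 0.13).

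Of the accessory subunits, Ss18l1 (CREST), known from neuronal BAF complexes, read 7.23, 6.86 and 5.80 CPM in the cKO libraries, against 10.2, 9.13 and 10.3 CPM in the WT libraries. It fell 1.49-fold, with no overlap (log2 fold change -0.57, 95% interval -0.89 to -0.25, edgeR adjusted p = 0.0298), and the call was lost when WT replicate 1, 2 or 3 or cKO replicate 3 was left out (log2 fold change -0.64 to -0.48, edgeR adjusted p 0.0806 to 0.122). Ss18, the more abundant paralogue, read 109, 87.4 and 104 CPM in the cKO libraries, against 125, 124 and 129 CPM in the WT libraries. It was lower in each cKO library but not called (log2 fold change -0.34, 95% interval -0.57 to -0.10, edgeR adjusted p = 0.0595), and it was called when cKO replicate 2 was left out (log2 fold change -0.25, edgeR adjusted p = 0.0165). Bcl7a, Bcl7b and Bcl7c, small subunits of all BAF classes, were not called and had log2 fold changes of 0.08 (-0.11 to 0.28), -0.02 (-0.27 to 0.22) and 0.05 (-0.14 to 0.25). Their sum was 20.0 ± 0.171 CPM per kilobase in cKO and 19.6 ± 0.857 in WT nerves.

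The ISWI ATPase gene Smarca1 (SNF2L, ENSMUSG00000031099, GRCm38 chromosome X, 47809368 to 47892974), known mostly from neurons, had the largest rise of all members called. It read 34.5, 28.3 and 31.7 CPM in the cKO libraries, against 18.3, 20.8 and 20.1 CPM in the WT libraries. The lowest cKO library lay above the highest WT library, and Smarca1 rose to 31.5 ± 3.10 CPM in cKO nerves, against 19.7 ± 1.28 CPM in WT nerves (SD, n = 3 each; log2 fold change 0.67, 95% interval 0.41 to 0.93, edgeR adjusted p = 0.00815). The call was lost when WT replicate 1 was left out (log2 fold change 0.62, edgeR adjusted p = 0.0507). The gene is X-linked, and the mix of sexes differed between libraries. Xist read 205, 412 and 518 CPM in cKO and 1011, 454 and 252 CPM in WT libraries. The part of this mix in the level of Smarca1 was not tested. Its paralogue Smarca5 (SNF2H), the form found in most dividing cells, read 52.8, 47.0 and 50.8 CPM in the cKO libraries, against 46.9, 52.3 and 51.6 CPM in the WT libraries. These values overlapped and the interval was narrow (log2 fold change -0.002, 95% interval -0.21 to 0.20, edgeR adjusted p = 0.991), although 28.2% of the 50-base words of Smarca5 occur in transcripts of other genes, so its count is uncertain. Smarcad1, an ATPase that acts behind the replication fork, read 53.1, 42.9 and 43.3 CPM in cKO and 54.8, 54.7 and 57.6 CPM in WT nerves (log2 fold change -0.26, 95% interval -0.51 to -0.01, edgeR adjusted p = 0.130) and was called when cKO replicate 1 was left out (log2 fold change -0.37, edgeR adjusted p = 0.0358).

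The pair also differs in its promoter sequence. The windows below, from RefSeq on GRCm38.p6, run from 250 bases before to 50 bases after an annotated start and are shown because they set the member with the largest called rise beside its paralogue with no called change. Smarca1 (chrX:47892564-47892863, minus strand) holds 9 CpG dinucleotides and Smarca5 (chr8:80739410-80739709, minus strand) holds 32, marked CG in capitals.
Smarca1: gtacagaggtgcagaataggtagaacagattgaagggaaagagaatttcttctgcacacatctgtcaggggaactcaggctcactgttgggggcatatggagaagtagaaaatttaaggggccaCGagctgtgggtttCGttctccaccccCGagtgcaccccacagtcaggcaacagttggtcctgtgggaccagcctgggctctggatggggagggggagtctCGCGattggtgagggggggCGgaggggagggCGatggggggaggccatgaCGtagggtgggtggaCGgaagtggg
Smarca5: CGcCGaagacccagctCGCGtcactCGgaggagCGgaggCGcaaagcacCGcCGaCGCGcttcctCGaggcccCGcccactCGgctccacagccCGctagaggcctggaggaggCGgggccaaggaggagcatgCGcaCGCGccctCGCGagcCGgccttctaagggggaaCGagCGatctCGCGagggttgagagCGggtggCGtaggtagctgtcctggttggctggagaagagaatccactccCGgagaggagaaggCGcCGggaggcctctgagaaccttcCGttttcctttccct
The motif CG, which reads the same on both strands, is in 94.6% of all 32851 windows, with a median of 7 per window. In the 36 windows found for 30 of the 40 members the median was 31. At most as many as in Smarca1 were found in 56.5% of all windows, and at least as many as in Smarca5 in 9.52%. This describes the letters of these windows and says nothing about how the genes were controlled here.

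Among 9 partner subunits of ISWI complexes, 3 fell and 0 rose, beside 10.3% lower and 8.55% higher over all genes tested. Baz1a (ACF1), which joins Smarca5 in the ACF and CHRAC complexes, read 21.4, 21.6 and 22.3 CPM in the cKO libraries, against 47.5, 47.0 and 44.1 CPM in the WT libraries. It fell 2.12-fold (log2 fold change -1.09, 95% interval -1.28 to -0.90, edgeR adjusted p = 0.000654) and was called whichever of the 6 libraries was left out, although 8.59% of its 50-base words occur in other genes. Baz2a (TIP5), the partner in the nucleolar complex NoRC, read 70.7, 63.4 and 59.8 CPM in the cKO libraries, against 105, 90.4 and 98.6 CPM in the WT libraries. It fell 1.51-fold (log2 fold change -0.60, 95% interval -0.83 to -0.37, edgeR adjusted p = 0.00863), again whichever library was left out. Bptf, the large subunit of NURF, in which Smarca1 is an ATPase, read 93.2, 74.2 and 84.7 CPM in the cKO libraries, against 124, 109 and 108 CPM in the WT libraries. It fell 1.35-fold (log2 fold change -0.44, 95% interval -0.70 to -0.17, edgeR adjusted p = 0.0366), a call lost when WT replicate 1, 2 or 3 or cKO replicate 3 was left out (log2 fold change -0.48 to -0.38, edgeR adjusted p 0.0968 to 0.132). The other 6 were not called. Of these Chrac1, a small histone-fold subunit of CHRAC, had 0.45 (edgeR adjusted p = 0.0522), Rsf1 -0.27 (edgeR adjusted p = 0.0746) and Baz2b -0.23 (edgeR adjusted p = 0.0780). With cKO replicate 2 left out, 1 ISWI partner was higher and 4 were lower, beside 17.8% and 17.6% of all genes. Chrac1 then had 0.34 (edgeR adjusted p = 0.0152), and Rsf1 was called at -0.34 (edgeR adjusted p = 0.00537). Chrac1 was also called without cKO replicate 3 (log2 fold change 0.56, edgeR adjusted p = 0.0429).

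All 9 CHD genes had a log2 fold change below 0, as did 45.7% of all genes tested. The CHD median was -0.35, and 5 of the 9 fell (55.6%, against 10.3% of all genes tested). Chd4 (Mi-2 beta, ENSMUSG00000063870, GRCm38 chromosome 6, 125095981 to 125130591), the main ATPase of NuRD, read 168, 196 and 168 CPM in the cKO libraries, against 303, 260.5 and 265 CPM in the WT libraries. It was lower in every cKO library and fell 1.56-fold, to 177 ± 15.9 CPM in cKO nerves, against 276 ± 23.2 CPM in WT nerves (SD, n = 3 each; log2 fold change -0.64, 95% interval -0.90 to -0.38, edgeR adjusted p = 0.00974). Of the 11 called remodeller genes it was the 1 whose call held whichever of the 6 libraries was left out. Chd3, another NuRD ATPase, read 185, 149.6 and 212 CPM in the cKO libraries, against 215, 197 and 181 CPM in the WT libraries, and the groups overlapped (log2 fold change -0.12, 95% interval -0.46 to 0.23, edgeR adjusted p = 0.592). Its value without cKO replicate 2 was 0.01 (edgeR adjusted p = 0.971). Chd5, the form known from neurons, was low and read 2.13, 1.83 and 1.80 CPM in the cKO libraries, against 4.24, 3.43 and 2.65 CPM in the WT libraries. It fell 1.79-fold (log2 fold change -0.84, 95% interval -1.37 to -0.31, edgeR adjusted p = 0.0415), and the call was lost when WT replicate 1, 2 or 3 or cKO replicate 1 or 3 was left out (log2 fold change -1.0 to -0.67, edgeR adjusted p 0.0563 to 0.141).

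Chd1 and Chd2, remodellers found at actively transcribed genes, had log2 fold changes of -0.23 and -0.41. Chd2 read 87.8, 102 and 82.2 CPM in the cKO libraries, against 131, 112 and 119 CPM in the WT libraries. It fell 1.33-fold with no overlap (log2 fold change -0.41, 95% interval -0.67 to -0.15, edgeR adjusted p = 0.0419), and the call was lost when WT replicate 1, 2 or 3 or cKO replicate 1 or 3 was left out (log2 fold change -0.48 to -0.35, edgeR adjusted p 0.0799 to 0.148). Of its exonic bases 19.3% overlap another gene, mainly 1810026B05Rik on the same strand. Chd1 read 62.6, 52.8 and 55.7 CPM in the cKO libraries, against 69.3, 65.1 and 66.8 CPM in the WT libraries, also without overlap, but was not called (log2 fold change -0.23, 95% interval -0.45 to -0.02, edgeR adjusted p = 0.117).

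In the last CHD group, Chd6 and Chd9 fell. Chd6 read 84.1, 70.0 and 78.2 CPM in the cKO libraries, against 110.3, 103 and 103 CPM in the WT libraries (log2 fold change -0.44, 95% interval -0.67 to -0.22, edgeR adjusted p = 0.0198), a call lost when WT replicate 1, 2 or 3 or cKO replicate 3 was left out (log2 fold change -0.48 to -0.42, edgeR adjusted p 0.0622 to 0.0875). Chd9 read 55.3, 61.0 and 58.8 CPM in the cKO libraries, against 74.0, 75.0 and 68.0 CPM in the WT libraries (log2 fold change -0.31, 95% interval -0.50 to -0.12, edgeR adjusted p = 0.0416), a call lost when WT replicate 1, 2 or 3 or cKO replicate 1 or 3 was left out (log2 fold change -0.36 to -0.27, edgeR adjusted p 0.0917 to 0.140). In both genes each cKO library was below each WT library. Chd8, a gene linked to autism and a regulator of beta-catenin targets, had -0.20 (-0.41 to 0.01, edgeR adjusted p = 0.157). Chd7, the gene mutated in CHARGE syndrome and a partner of Sox10, read 16.8, 35.3 and 15.4 CPM in the cKO libraries, against 32.2, 26.4 and 27.5 CPM in the WT libraries. Its cKO libraries were split: replicates 1 and 3 lay below all WT libraries and replicate 2 above them. With all libraries it was not called (log2 fold change -0.35, 95% interval -1.15 to 0.45, edgeR adjusted p = 0.481). Without cKO replicate 2 its value was -0.83 (edgeR adjusted p = 6.42e-05).

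Of 12 partner subunits of NuRD, 1 fell (8.33%) and 0 rose, beside 10.3% lower and 8.55% higher over all genes tested. Mta2, a scaffold of the complex, read 114, 104 and 116 CPM in the cKO libraries, against 149, 146 and 157 CPM in the WT libraries. It fell 1.36-fold (log2 fold change -0.44, 95% interval -0.64 to -0.24, edgeR adjusted p = 0.0138), and the call was lost when WT replicate 1, 2 or 3 was left out (log2 fold change -0.48 to -0.41, edgeR adjusted p 0.0602 to 0.0774). The other 11 were not called. Of these the histone-binding Rbbp7 had 0.37 (edgeR adjusted p = 0.0978) and its paralogue Rbbp4 -0.26 (edgeR adjusted p = 0.104), and the zinc finger subunit Gatad2b had -0.25 (edgeR adjusted p = 0.113). With cKO replicate 2 left out, 4 NuRD partners were lower and 1 was higher, beside 17.6% and 17.8% of all genes. Rbbp7 was then called at 0.22 (edgeR adjusted p = 0.0326), Rbbp4 at -0.32 (edgeR adjusted p = 0.00596) and Gatad2b at -0.33 (edgeR adjusted p = 0.00554). Actb, whose protein pairs with Actl6a inside BAF complexes, read 1868, 1673 and 1881 CPM in the cKO libraries, against 1336, 1344 and 1386 CPM in the WT libraries. It rose 1.33-fold (log2 fold change 0.41, 95% interval 0.17 to 0.66, edgeR adjusted p = 0.0360), a call lost when WT replicate 1, 2 or 3 or cKO replicate 1 or 3 was left out (log2 fold change 0.38 to 0.42, edgeR adjusted p 0.0858 to 0.177). Bcl11a, a zinc finger protein found with BAF, had 1.14 and was not called (edgeR adjusted p = 0.0642). It was called when cKO replicate 1 or 2 was left out (log2 fold change 1.13 to 1.40, edgeR adjusted p 0.0259 to 0.0281). Bcl11b was too low to be tested.

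Paralogues were also compared within each library, as the ratio of the 2 levels per kilobase, which does not depend on library scaling. Of 19 pairs, 7 had ratios that did not overlap between the groups, beside 42.7% of all genes whose levels did not overlap. Which paralogue stands on top of a ratio is arbitrary. Which of the 2 is the more abundant depends on the exonic lengths used, whereas the log2 difference between the groups does not. Smarcd2 over Smarcd1 was 1.65, 2.23 and 1.94 in cKO and 0.856, 1.05 and 1.12 in WT libraries. The 2 genes were about equal in WT nerves, and Smarcd2 was the more abundant in every cKO library. Bicral over Bicra was 1.09, 0.963 and 1.03 in cKO and 0.556, 0.628 and 0.663 in WT libraries, so Bicra exceeded Bicral in each WT library and was near it in cKO libraries. Smarca1 over Smarca5 was 0.831, 0.765 and 0.793 in cKO and 0.497, 0.506 and 0.495 in WT libraries. Smarca2 over Smarca4 was 0.665, 0.485 and 0.596 in cKO and 0.349, 0.431 and 0.426 in WT libraries.

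Chd3 over Chd4 was 1.04, 0.727 and 1.20 in cKO and 0.676, 0.718 and 0.649 in WT libraries. The gap between the groups was small there, since cKO replicate 2 lay just above the WT range. Actl6b over Actl6a was higher in each cKO library but stayed small, with a share of Actl6b in the pair of 0.601% ± 0.225 in cKO and 0.212% ± 0.0144 in WT nerves. Smarcc2 over Smarcc1 was 2.67, 2.56 and 2.52 in cKO and 2.92, 2.99 and 2.88 in WT libraries. On the log2 scale the differences, cKO minus WT, were 0.95, 0.74, 0.67, 0.53, 0.51, 1.34 and -0.18 in the order given. Each had an exact 2-sided permutation p of 0.1, the smallest that 3 against 3 libraries can give, and 0.271 after adjustment over the 19 pairs, so none could pass. The other 12 pairs overlapped, among them Arid1b over Arid1a, with a difference of -0.004.

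**Figure D3:**
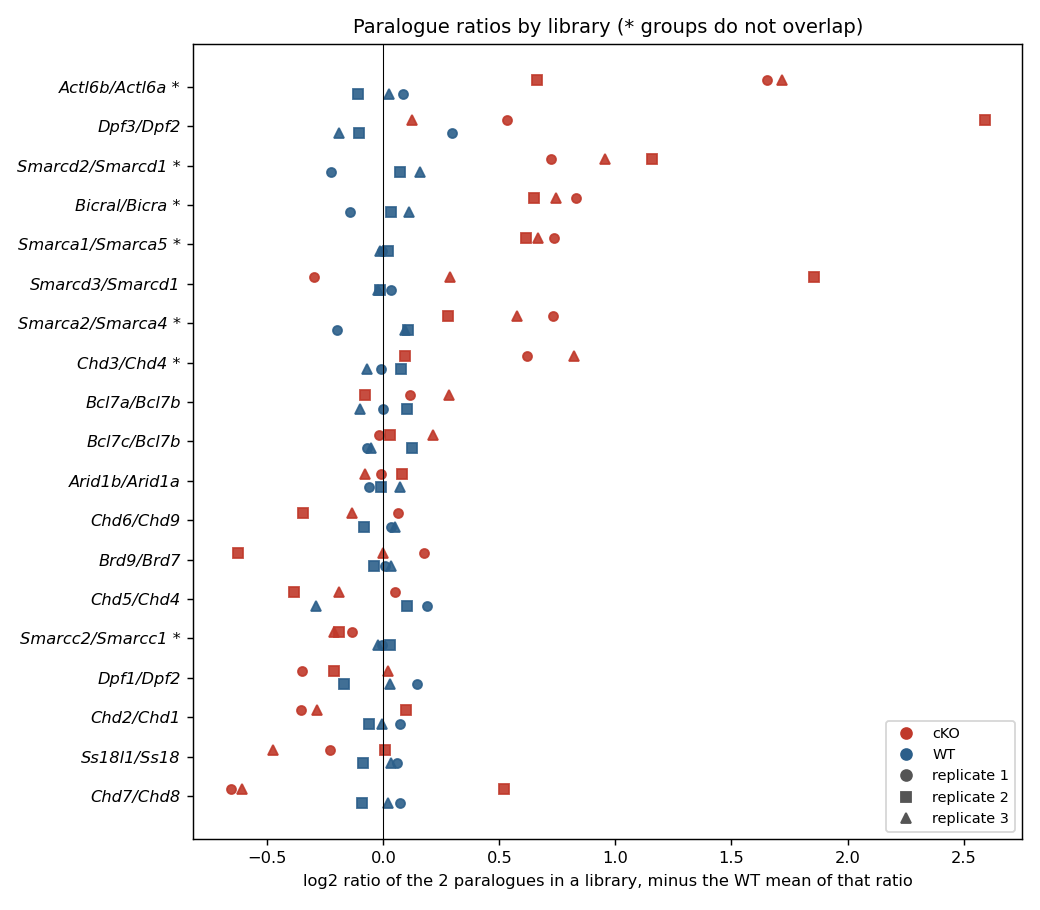
Log2 ratio of paralogues in each library for 19 pairs, minus the mean of that ratio in WT, with cKO libraries in red above WT libraries in blue. Asterisks mark the 7 pairs whose groups do not overlap; Dpf3 over Dpf2 and Smarcd3 over Smarcd1 are far to the right in cKO replicate 2 alone.

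Levels per kilobase were also summed over families. These sums, and the order of genes by level, depend on the exonic lengths used. The Smarcd family summed to 36.1 ± 1.83 CPM per kilobase in cKO and 34.1 ± 1.98 in WT nerves (SD, n = 3 each), with Smarcd3 in cKO replicate 2 included. The Chd3, Chd4 and Chd5 sum was 43.9 ± 2.13 CPM per kilobase in cKO and 58.2 ± 4.83 in WT nerves and the Chd1 and Chd2 sum 12.9 ± 0.642 CPM per kilobase in cKO and 16.1 ± 0.910 in WT nerves. For Arid1a and Arid1b together it was 12.5 ± 0.461 CPM per kilobase in cKO and 15.7 ± 1.53 in WT nerves, and for Smarcc1 and Smarcc2 32.3 ± 3.07 CPM per kilobase in cKO and 39.2 ± 3.51 in WT nerves. The Smarca1 and Smarca5 sum was 11.6 ± 0.881 CPM per kilobase in cKO and 9.69 ± 0.589 in WT nerves. In WT nerves the most abundant members per kilobase were Chd4, Smarcc2 and Chd3, at 34.4, 29.2 and 23.4. In cKO nerves Smarcc2, Chd4 and Chd3 lay at 23.3 ± 2.07, 22.1 ± 1.98 and 21.6 ± 3.73, which did not differ beyond their spread. The lowest were Actl6b, Chd5, Dpf3 and Dpf1, at 0.0669, 0.200, 1.04 and 0.670 in cKO nerves, against 0.0270, 0.359, 0.360 and 0.793 in WT nerves.

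Dpf3, Smarcd3, Chd7 and Brd7 stood out in cKO replicate 2 and were picked by their values there. Each was higher there than in the other 5 libraries, as were all 10 skeletal muscle markers. Dpf2 and Phf10 also had their highest value there, by a smaller margin. They read 70.0 and 77.7 CPM, against up to 66.8 and 71.6 CPM in the other 5 libraries. The share of all genes that were highest in that library was not counted. The muscle markers had 0 of 10 called with all libraries, with 0 at 0 counts. Their part in the values of Dpf3, Smarcd3, Chd7 and Brd7 was not tested. Without that library Dpf3 had 0.20 (edgeR adjusted p = 0.592) and Smarcd3 -0.36 (edgeR adjusted p = 0.0853) on the log2 scale, so the sign of Smarcd3 turned. Of the ISWI partners Cecr2, named here after its values were seen, had 4.44, 14.0 and 4.86 CPM in cKO and 5.21, 3.80 and 5.75 CPM in WT nerves. Its log2 value was 0.65 with the library and -0.08 (edgeR adjusted p = 0.764) without it.

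**Figure D4:**
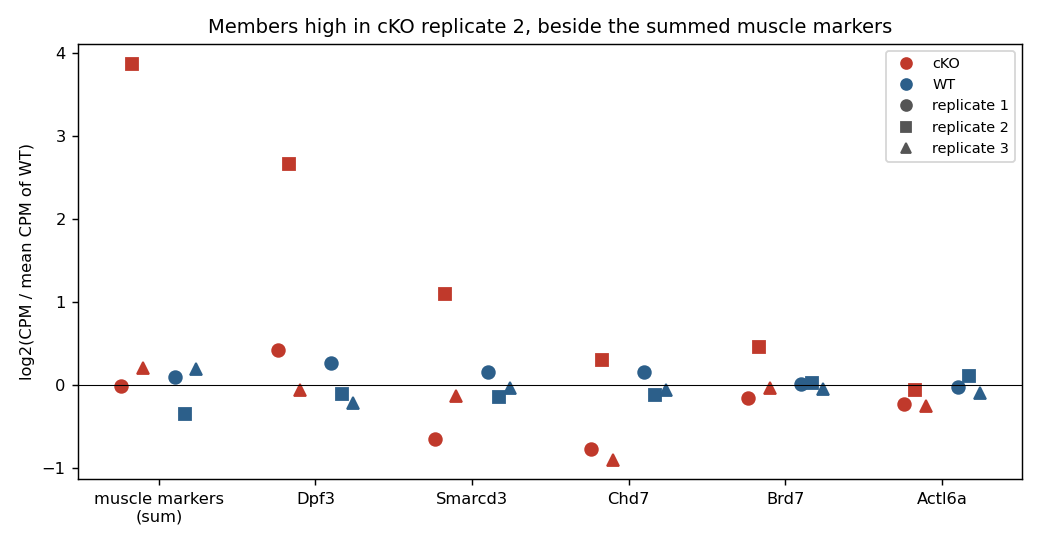
Log2 of CPM over the mean CPM of WT libraries, for the summed skeletal muscle markers and for Dpf3, Smarcd3, Chd7, Brd7 and Actl6a, with cKO libraries in red left of WT libraries in blue. The square of cKO replicate 2 is the highest point for the muscle markers and for the first 4 genes, but not for Actl6a.

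How well the calls held differed between members. All 11 called genes had cKO and WT libraries that did not overlap. This adds no support to the calls, which come from the same 6 libraries. Over all genes tested, called or not, 42.7% did not overlap. Of the 11 calls, 11 held without cKO replicate 2, 7 without cKO replicate 1 and 3 without cKO replicate 3. Without WT replicate 1 the call of Chd4 alone held, and without WT replicate 2 or 3 it was 3 each. Of the exonic bases of Smarcd3, 48.2% overlap another gene, mainly Chpf2 on the other strand, and reads could be given to neither gene. Actl6a shares 11.6% of its exonic bases with Mrpl47.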

How the data were processed

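RNA from sciatic nerves of 3 cKO and 3 WT samples was sequenced. The counts per gene were deposited as made by the authors with featureCounts 1.6.1 on Ensembl GRCm38 release 95, per the file headers: fragments with both ends aligned and a mapping quality of at least 20, over exons, with no strand option. Fragments on exons of more than 1 gene, or aligned to several places, were thus not counted in either gene. Subread 2.0, an aligner package that includes featureCounts, is listed in the submitters' processing notes with no step given, and its version differs from the featureCounts version in the header. The exonic length in bases was deposited by the authors in the same table, per the file headers.

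Here edgeR 4.0.16 (R 4.3.3) was run on the counts: filterByExpr with a minimum count of 10, TMM factors, a robust quasi-likelihood fit of genotype on all 6 libraries, and Benjamini-Hochberg adjustment over 18775 genes, with 0.05 as the threshold. The fit was also run on simulated counts in which no library stood apart as cKO replicate 2 does. That run therefore lends no support to the calls made here. The 95% intervals come from the 4 residual degrees of freedom and moderated spread of the fit to the 6 libraries. Alternatives were DESeq2 1.42.0, RLE or no scaling factors, no filter, a replicate block and each library left out. Ratios of paralogues used counts plus 0.5 per kilobase of exon. A share of words is the share of a gene's 50-base transcript stretches found in other genes. Symbols were matched for 54809 of 54838 rows.

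All 40 members are named. Of partner subunits, called genes and the 3 others with the smallest p in each list are named. Members and lists were chosen with earlier results of these data known. The labels do not say that replicates are separate animals. The p-values set the group difference against the spread between these samples, and the source of that spread is not given. In replicates 1, 2 and 3 Xist read 205, 412 and 518 CPM in cKO and 1011, 454 and 252 CPM in WT libraries. Kdm5d read 15.7, 20.8 and 7.97 CPM in cKO and 9.54, 25.5 and 29.55 CPM in WT libraries. The mix of male and female material thus differed between replicates.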

Additional observations from a re-analysis of the deposited data

How the results depend on the processing

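Of the 11 calls on remodellers, 11 held under DESeq2 and under RLE size factors, and 9 with no filter on low counts, where Smarca2 and Chd9 were lost. DESeq2 called 5 members more. With library size alone as the scaling, 2282 genes, 4 members (Bicra, Smarca1, Chd2 and Chd4) and 3 partner subunits were called, against 3534, 11 and 5 with TMM. The labels do not say whether replicate numbers pair the samples. Same-numbered cKO and WT libraries deviated from their group means with correlations of -0.22, -0.23 and -0.08. Libraries with different numbers had correlations of -0.12 to 0.22. With 3 libraries a group, these values do not establish whether the samples were paired. With the replicate number as a block, 1852 genes, 4 members (Smarcd1, Smarcd2, Smarca1 and Chd4) and 2 partners (Baz1a and Baz2a) were called. Leaving out each library in turn gave 1246 to 6823 genes, 1 to 19 members and 2 to 12 partners, the lowest count of members without WT replicate 1 and the highest counts without cKO replicate 2. Pairs of paralogues without overlap numbered 7 with 0.1 TPM added and 8 to 11 with a library left out, where fewer libraries make overlap rarer.

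The sign of the log2 fold change turned for genes near 0: Smarcb1 was -0.007 with no filter and Smarca5 was 0.0064 with library size alone. With a library left out, the sign turned for Smarcb1 (-0.037 to 0.046), Smarcd3 (-0.36 to 0.61), Brd7 (-0.092 to 0.23), Bcl7b (-0.11 to 0.020), Smarca5 (-0.057 to 0.041), Chd3 (-0.24 to 0.0052), Cecr2 (-0.083 to 0.93), Pole3 (-0.14 to 0.041), Mta3 (-0.0081 to 0.070), Mbd2 (-0.065 to 0.065) and Cdk2ap1 (-0.27 to 0.054). None of these genes was called with all libraries, and the cause was not tested.

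With 3 libraries a group, a call not made does not show that a gene was unaltered. Actl6b and Chd5 rest on few counts.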
